A study of Mus musculus with 24 samples.

Results

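Mouse left ventricles in which Rhot1 and Rhot2 were deleted in cardiomyocytes during embryonic life (double knockout, DKO) were compared between an age labelled day 7 and an age labelled day 1. The members were every DKO library of the series, 12 of 24, split by the age label into 6 libraries of labelled day 7 (m1026, m1046, m1067, m1092, m1124 and m1128) and 6 of labelled day 1 (29, 33, 35, 55, 69 and 79). The other 12 libraries came from control ventricles, 6 of each labelled age. All 24 were polyA RNA libraries from left ventricular tissue, although the labels name cardiomyocytes as the source. All animals were kept on the same light cycle and feeding, and the labels give no further allele or agent. Cre driver, strain and the alleles of the controls are not named in the labels. Nothing in the labels ties a library to an animal of its own, and the p-values speak only of the spread among these libraries, which may be technical.

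RHOT1 and RHOT2, also called MIRO1 and MIRO2, sit in the outer mitochondrial membrane and tie mitochondria to the motors that carry them along microtubules. Around birth the mammalian heart turns from glucose and lactate to fatty acids as its fuel, its cardiomyocytes leave the cell cycle, and fetal isoforms of the contractile proteins give way to adult ones. The series title puts RHOT proteins between mitochondrial movement and the maturation of the sarcomere. The comparison of labelled ages within DKO asks which transcripts differ across that window when both proteins are missing from cardiomyocytes.

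The deposited table holds counts per gene. Total counts were 22345262 to 30453874 in DKO libraries of labelled day 7 and 30318018 to 37967935 in DKO libraries of labelled day 1, against 17334498 to 27272982 and 36145645 to 45806171 in the control libraries of the same labels. Values below are counts scaled to library size (CPM, TMM-adjusted), and 3 values for a group are its lowest, median and highest library of 6. Rhot2 had 0 counts in all 24 libraries and gives no check of the genotype. The counting tool and annotation of the deposited counts are not given. For any gene here and below, 0 counts in all libraries therefore do not show that its transcript was absent. Rhot1 measured 123, 129 and 151 CPM in labelled day 7 DKO libraries, against 107, 118 and 136 CPM at labelled day 1 (log2 fold change 0.15 ± 0.07, edgeR adjusted p = 0.070). Control libraries held 144 to 164 CPM of Rhot1 at labelled day 7 and 129 to 173 CPM at labelled day 1. Counts were summed over the whole gene and the deleted exons are not given, so the remaining Rhot1 reads do not check the deletion.

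The age labels run against many of the transcripts that mark age in the mouse heart. Fetal isoforms, imprinted growth genes and division genes were more often higher than lower in the libraries labelled day 7. Transcripts of the mature heart, such as those of oxidative metabolism, were more often higher in the libraries labelled day 1. Some genes of mature muscle departed from this: Ttn and Ckm were higher at labelled day 7, and Myh6 did not pass. The same held in control libraries. Each comparison is therefore given as labelled, and a direction drawn from it applies to the labels. Further features ran with the labelled age. Y-linked Eif2s3y exceeded 10 CPM in 2 of 6 DKO libraries of labelled day 7 (m1124 and m1128) and in 6 of 6 of labelled day 1, and the control libraries split 2 of 6 and 6 of 6 in the same way. Sex is not given in the labels, and this imbalance cannot be fully told apart from the labelled age. A setting used below leaves out m1124 and m1128, the only DKO libraries of labelled day 7 above that level. It makes the imbalance complete in DKO and leaves it unchanged in controls. All libraries of labelled day 7 carry names of the m series and all of labelled day 1 plain numbers, so that any difference in handling between the 2 series and the labelled age cannot be told apart. The share of counts in pseudogenes was 5.87 to 6.32% in DKO libraries of labelled day 7 and 8.9 to 10.3% in those of labelled day 1.

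A large share of the transcriptome differed between the labelled ages in DKO ventricles. Of 17352 genes tested, 9119 passed an adjusted p of 0.05 (edgeR quasi-likelihood test, Benjamini-Hochberg), which is 52.6%. Of these, 4729 were higher at labelled day 7 (27.3% of genes tested) and 4390 lower (25.3%). More than 2-fold differences made up 1218 of the higher and 1138 of the lower genes. The CPM ranges of the 6 and 6 libraries did not overlap for 5352 genes (30.8%). The median log2 fold change over all genes was 0.02. The leading principal component held 52.2% of the variance and set the labelled ages apart, with DKO scores of 36.1 to 49.0 at labelled day 7 and -55.2 to -44.9 at labelled day 1. Against this background a list of genes stands out only where its calls lie mostly on a single side. Where a pathway list below has 0 members on a side, 0 also passed there at an unadjusted p of 0.05, with DESeq2 and with limma-voom. In all that follows, fold changes are labelled day 7 over labelled day 1 on the log2 scale with their standard error. Most genes named below were chosen because they passed and their groups did not overlap. For these, the p-value and the separate ranges follow from that choice and are no further evidence. A panel of developmental genes was named whatever its result, and genes chosen after their values were seen are marked.

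**Figure D1:**
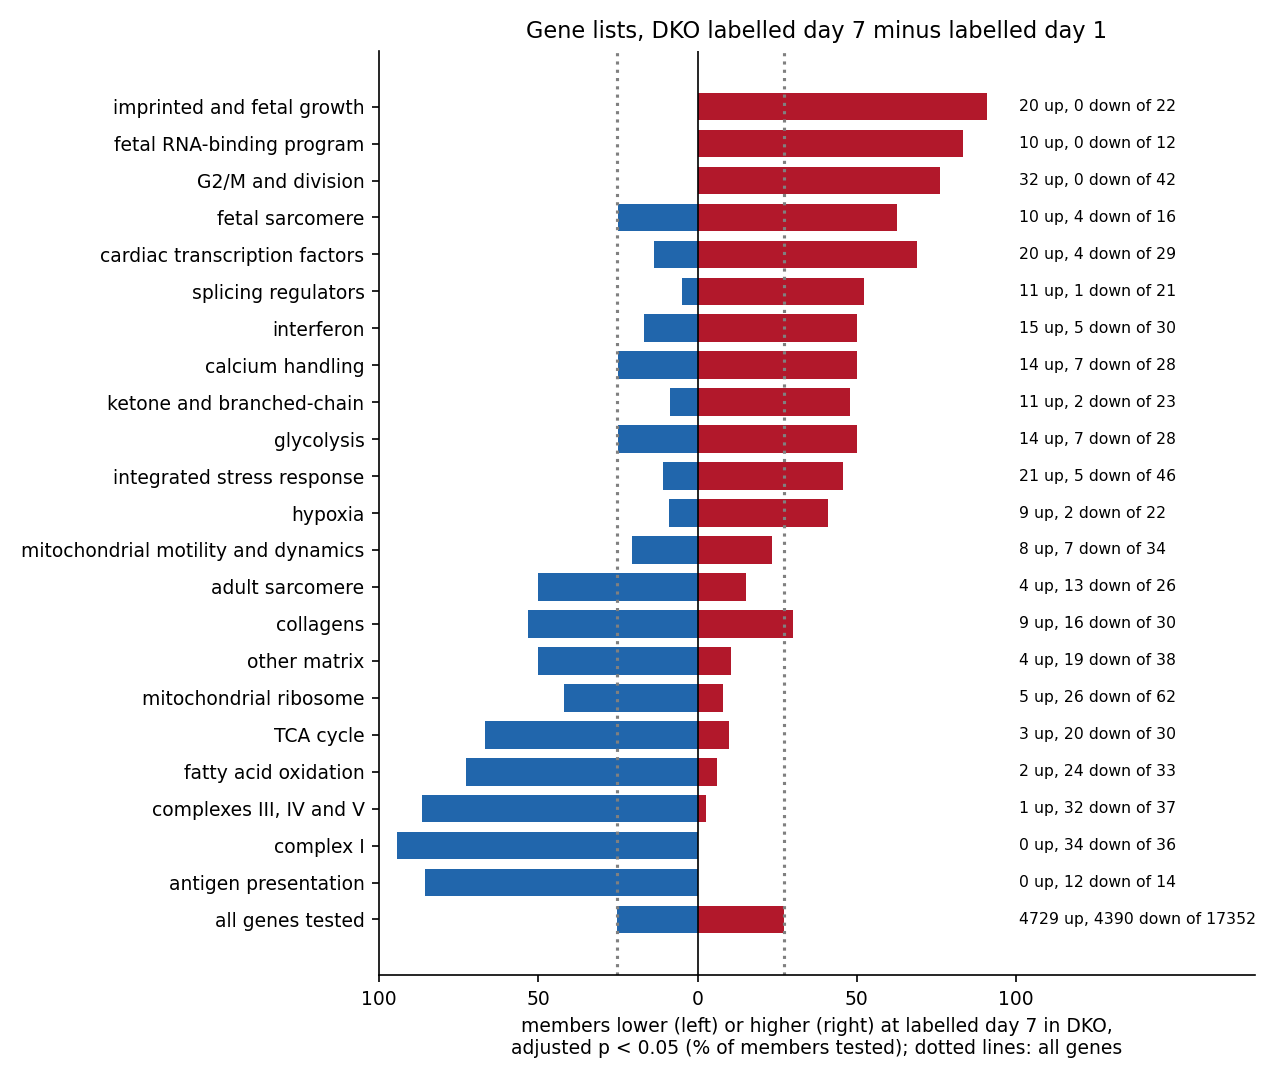
Share of each gene list's tested members higher (right, red) or lower (left, blue) at labelled day 7 in DKO ventricles, in % of members tested, with counts at the right margin; dotted lines mark all genes, 27.3% higher and 25.3% lower. Imprinted, division and fetal RNA-binding genes lie on the right with 0 lower members, and complex I lies on the left with 0 higher members.

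The contractile apparatus carried more of its fetal isoforms at labelled day 7. Of 16 fetal or slow sarcomere genes tested, 10 were higher and 4 lower, with a median of 0.65. Of 26 adult sarcomere genes, 4 were higher and 13 lower, with a median of -0.20. Myh7, the slow myosin heavy chain that predominates in the fetal mouse ventricle, measured 8108, 9921 and 12090.4 CPM in labelled day 7 DKO libraries, against 2480.3, 2690.1 and 2844 CPM at labelled day 1 (log2 fold change 1.88 ± 0.13, edgeR adjusted p = 3.0e-11). Tnni1, the slow, fetal troponin I, had 2118, 2290.0 and 2769 CPM at labelled day 7 and 323, 670.5 and 959.6 CPM at labelled day 1 (log2 fold change 1.84 ± 0.31, edgeR adjusted p = 2.7e-05). The ranges lay far apart for both genes. Exons of Myh7 overlap other annotated genes over 75.3% of their bases, and the library kit does not mark strand, so reads of overlapping genes cannot be told apart. For Tnni3, the adult cardiac troponin I, the labelled day 7 values were 1926, 2029 and 2416 CPM and the labelled day 1 values 2879.8, 3044 and 3418 CPM (log2 fold change -0.56 ± 0.10, edgeR adjusted p = 5.7e-05). Myom2, an M-band protein of fast and adult muscle, measured 563, 658 and 1065 CPM in labelled day 7 DKO libraries, against 1276, 1375 and 1736 CPM at labelled day 1 (log2 fold change -0.95 ± 0.13, edgeR adjusted p = 1.3e-06). Both adult genes were lower in all 6 libraries of labelled day 7 than in any of labelled day 1. Myh6, the fast adult myosin heavy chain, had 19377, 24730.4 and 27464 CPM at labelled day 7 and 25054, 27424 and 29811 CPM at labelled day 1 (log2 fold change -0.17 ± 0.09, edgeR adjusted p = 0.12). The Myh6 ranges overlapped, and the gene did not pass the test, although it did with the length trend removed, with pseudogenes left out and with upper-quartile scaling. For Ttn, the giant spring protein titin, the labelled day 7 values were 4428, 4618 and 5579 CPM and the labelled day 1 values 3748, 3789.9 and 4031 CPM (log2 fold change 0.31 ± 0.06, edgeR adjusted p = 5.5e-05).

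Shares within isoform pairs do not depend on library scaling, and 10 pairs were formed. Myh7 took 29 ± 5.57% of the Myh7 and Myh6 counts at labelled day 7, against 8.91 ± 0.452% at labelled day 1 (SD, n = 6 each). Tnni1 took 53 ± 1.47% of the Tnni1 and Tnni3 counts at labelled day 7, against 17.4 ± 6.49% at labelled day 1. Myl4, the atrial and fetal essential light chain, took 6.59 ± 3.62% of the Myl4 and Myl3 counts at labelled day 7, against 0.779 ± 0.0646% at labelled day 1. The 3 shares were higher in every library of labelled day 7 than in any of labelled day 1. Cytochrome oxidase showed the same order: Cox7a2 took 77.8 ± 1.53% of the Cox7a2 and Cox7a1 counts at labelled day 7, against 57.2 ± 2.88% at labelled day 1, and Cox8a took 80.5 ± 0.857% of the Cox8a and Cox8b counts at labelled day 7, against 42.6 ± 2.67% at labelled day 1. Slc2a1, the widely expressed glucose transporter GLUT1, took 17.5 ± 3.69% of the Slc2a1 and Slc2a4 counts at labelled day 7, against 5.03 ± 1.17% at labelled day 1. Hk1 took 85.3 ± 1.74% of the Hk1 and Hk2 counts at labelled day 7, against 66.7 ± 1.95% at labelled day 1, and Eno1 took 52.7 ± 2.26% of the Eno1 and Eno3 counts at labelled day 7, against 25.5 ± 1.82% at labelled day 1. For these 8 pairs the 2-sided exact permutation test gave p = 0.0022, the smallest that splits into 6 and 6 libraries allow, and 0.0027 after adjustment over 10 pairs. Ldha took 32.4 ± 6.35% of the Ldha and Ldhb counts at labelled day 7, against 26.4 ± 1.68% at labelled day 1, with an exact permutation p of 0.037 and 0.041 adjusted. The Ldha ranges overlapped, and the adjusted p was above 0.05 when any of libraries m1046, m1067, m1092, m1128, 29, 33, 55, 69 or 79 was left out (0.058 to 0.077). Tnnt1 took 0.253 ± 0.0591% of the Tnnt1 and Tnnt2 counts at labelled day 7, against 0.216 ± 0.0231% at labelled day 1, a difference within the spread of the libraries (exact permutation p = 0.18). The mean difference of the Myl4 share was 5.81 percentage points, and 4.51 without m1124, the library with the highest Myl4 share of 13.1%.

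**Figure D2:**
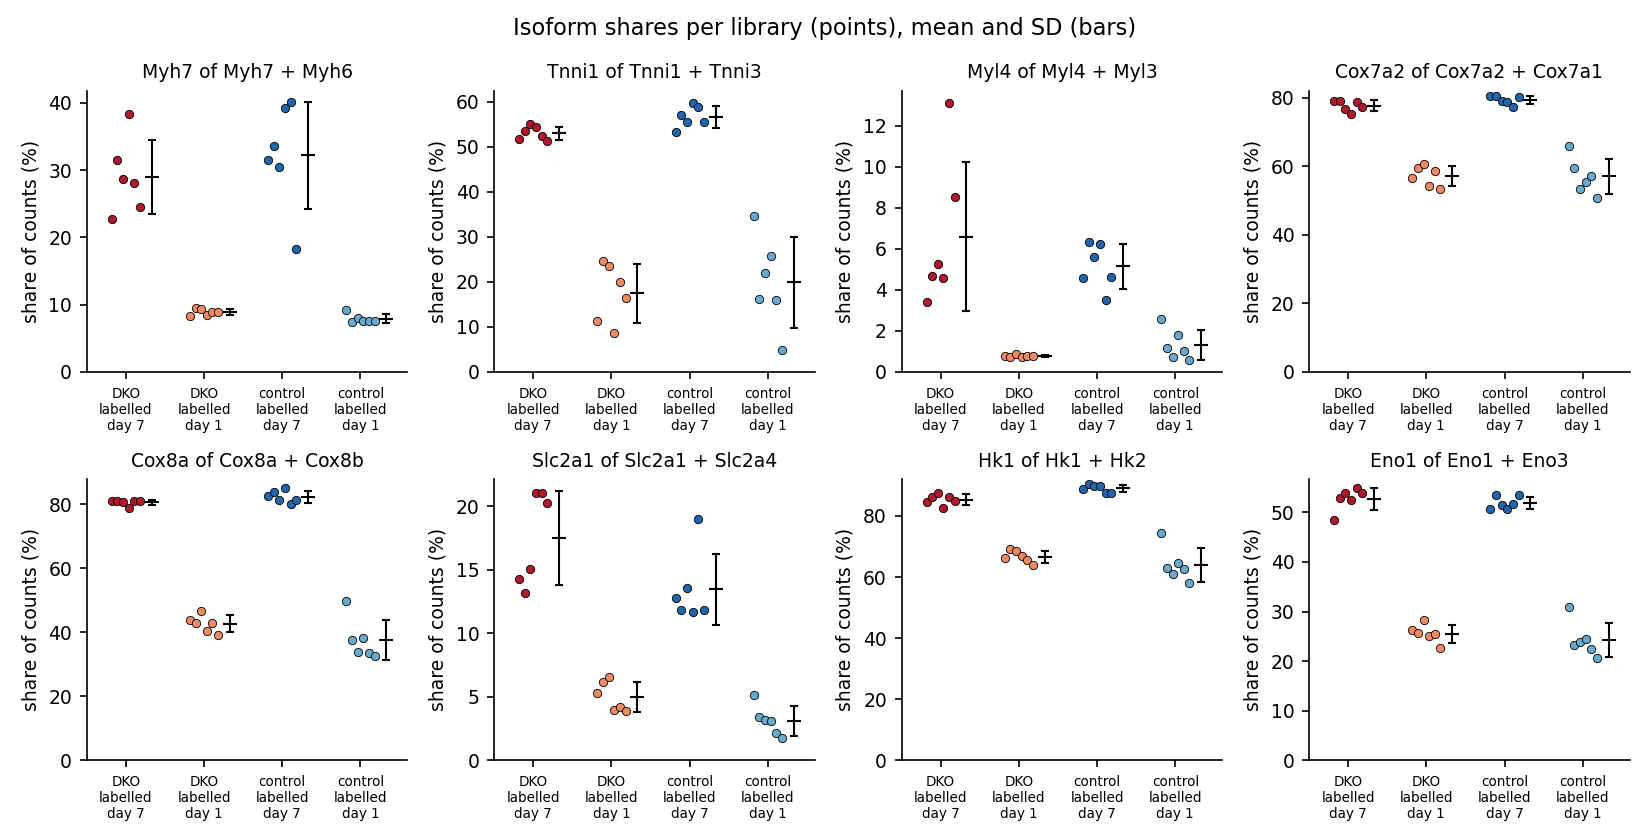
Share of an isoform's counts in the sum of the pair (%, axes from 0) for 8 pairs in each library, DKO on the left and control on the right of each panel, labelled day 7 left of labelled day 1; bars are means with SD (n = 6). Myh7 reached 22.8 to 38.4% in DKO at labelled day 7, against 8.35 to 9.46% at labelled day 1.

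Other structural genes moved in both directions. Myl4 and Cnn1, a smooth muscle calponin that the fetal heart also expresses, were the largest rises of the fetal list, at 2.6 ± 0.31 and 2.52 ± 0.27. Smpx, a small protein of the sarcomere and costamere, was higher by 0.44 ± 0.07, and Tnnt2, the cardiac troponin T, by 0.28 ± 0.08. Lmod3, an actin filament nucleator, and Myoz2, a Z-disc protein, were lower at -0.78 ± 0.13 and -0.64 ± 0.12. The adjusted p of these 6 genes ranged from 5.0e-08 to 0.0039 (edgeR), and their groups did not overlap. Among 17 genes of sarcomere turnover and repair 4 were higher and 9 lower (median -0.24). Xirp2, an actin-binding repeat protein of the intercalated disc, measured 8.74, 15.8 and 24 CPM in labelled day 7 DKO libraries, against 96.4, 120.0 and 251 CPM at labelled day 1 (log2 fold change -3.08 ± 0.29, edgeR adjusted p = 9.3e-09). Trim54, a muscle RING-finger ubiquitin ligase also called MURF3, had 7.3, 10.8 and 13 CPM at labelled day 7 and 34.7, 43.1 and 58 CPM at labelled day 1 (log2 fold change -2.12 ± 0.17, edgeR adjusted p = 2.8e-10). For Trim55, its relative MURF2, expressed early in muscle development, the labelled day 7 values were 686, 739 and 799 CPM and the labelled day 1 values 278, 331 and 369 CPM (log2 fold change 1.18 ± 0.10, edgeR adjusted p = 7.1e-10). Both MURF genes had separate ranges and opposite signs. Exons of Xirp2 overlap other genes over 74.4% of their bases.

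Calcium handling genes were more often higher than lower, 14 against 7 of 28 tested (median 0.27). Sln, sarcolipin, the atrial inhibitor of the SERCA calcium pump, measured 1.77, 15.4 and 139.7 CPM in labelled day 7 DKO libraries, against 0.0537, 0.742 and 1.7 CPM at labelled day 1 (log2 fold change 5.73 ± 1.28, edgeR adjusted p = 7.5e-04). Casq1, the skeletal muscle calsequestrin, had 37.9, 68.7 and 99.4 CPM at labelled day 7 and 8.08, 15.7 and 33.5 CPM at labelled day 1 (log2 fold change 1.94 ± 0.29, edgeR adjusted p = 6.9e-06). For S100a1, a calcium sensor that raises SERCA and ryanodine receptor activity, the labelled day 7 values were 222, 253 and 277 CPM and the labelled day 1 values 473, 493 and 598 CPM (log2 fold change -1.04 ± 0.07, edgeR adjusted p = 1.7e-11). The 3 genes had separate ranges, and Sln also spread widely within labelled day 7. Ppp1r1a, an inhibitor of protein phosphatase 1, was higher by 2.96 ± 0.18, and Hrc, a calcium-binding protein of the sarcoplasmic reticulum, was lower at -0.85 ± 0.13 (edgeR adjusted p = 5.9e-12 and 4.6e-06). With only the libraries that hold Y-linked transcripts (2 of labelled day 7, 6 of labelled day 1), 9 calcium handling genes were higher.

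Ion channel genes were split, with 9 higher and 9 lower of 25 (median 0.03), and receptors and relays of autonomic signals likewise, with 8 higher and 9 lower of 22 (median -0.06). Kcnq1, a channel of the slow delayed rectifier potassium current, measured 147, 161 and 202 CPM in labelled day 7 DKO libraries, against 98.9, 118 and 124 CPM at labelled day 1 (log2 fold change 0.52 ± 0.09, edgeR adjusted p = 1.7e-05). Kcnk3, a background potassium channel, had 29.1, 41 and 48.8 CPM at labelled day 7 and 76, 89.4 and 106 CPM at labelled day 1 (log2 fold change -1.15 ± 0.15, edgeR adjusted p = 5.1e-07). For Kcnj8, the pore of a vascular ATP-sensitive potassium channel, the labelled day 7 values were 15.3, 21.9 and 33.4 CPM and the labelled day 1 values 54, 62.3 and 63.6 CPM (log2 fold change -1.42 ± 0.15, edgeR adjusted p = 2.7e-08). Kcnq1 was higher and the other two lower, each without overlap. Hcn4, the pacemaker channel, chosen after its values were seen, had 0.355, 1.37 and 2.49 CPM at labelled day 7 and 0.0806, 0.357 and 0.463 CPM at labelled day 1 (log2 fold change 2.06 ± 0.37, edgeR adjusted p = 4.8e-05). The Hcn4 ranges overlapped at low levels. Prkar2b, a regulatory subunit of protein kinase A, was higher by 1.28 ± 0.20, and Rgs5, a G-protein regulator of pericytes, was lower at -2.06 ± 0.12. Rgs5 and Kcnj8 are also pericyte markers, and the summed pericyte markers were 589.7 to 772 CPM at labelled day 7 and 1539 to 1962 CPM at labelled day 1; their part in these values was not tested.

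Fatty acid oxidation was lower at labelled day 7 across most of its enzymes. Of 33 genes tested 2 were higher and 24 lower, with a median of -0.45 against 0.02 over all genes. Decr1, a mitochondrial reductase needed to break down unsaturated fatty acids, measured 74.9, 100.4 and 146 CPM in labelled day 7 DKO libraries, against 254, 270.1 and 284 CPM at labelled day 1 (log2 fold change -1.37 ± 0.12, edgeR adjusted p = 2.3e-09). Plin5, a lipid droplet protein that couples droplets to mitochondria, had 45.8, 73.3 and 94.3 CPM at labelled day 7 and 162, 181 and 212 CPM at labelled day 1 (log2 fold change -1.33 ± 0.19, edgeR adjusted p = 3.5e-06). For Ucp3, a mitochondrial carrier induced by fatty acids, the labelled day 7 values were 6.12, 21.8 and 35.6 CPM and the labelled day 1 values 50.1, 90.5 and 132 CPM (log2 fold change -2.1 ± 0.59, edgeR adjusted p = 0.0052). No library of labelled day 7 reached the lowest library of labelled day 1 in these 3 genes. Mlycd, malonyl-CoA decarboxylase, which removes the inhibitor of fatty acid entry into mitochondria, measured 35.6, 98.7 and 151 CPM in labelled day 7 DKO libraries, against 20.7, 25.2 and 33 CPM at labelled day 1 (log2 fold change 1.82 ± 0.31, edgeR adjusted p = 3.4e-05). Cpt1a, the liver and fetal form of the carnitine palmitoyltransferase that admits fatty acids, had 82.2, 123 and 139 CPM at labelled day 7 and 68.7, 84.3 and 91.5 CPM at labelled day 1 (log2 fold change 0.49 ± 0.15, edgeR adjusted p = 0.0076). Mlycd and Cpt1a were the 2 members that rose. Cpt1b, the muscle form, had 0 counts in all libraries. Without m1124 and m1128, Cpt1a no longer passed the test.

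Genes of ketone and branched-chain amino acid use were higher rather than lower, 11 against 2 of 23 (median 0.09). Bdh1, the mitochondrial dehydrogenase that opens ketone body oxidation, measured 6.42, 13.5 and 16.8 CPM in labelled day 7 DKO libraries, against 1.26, 1.6 and 2.68 CPM at labelled day 1 (log2 fold change 2.75 ± 0.25, edgeR adjusted p = 2.2e-09). Bckdhb, a subunit of the branched-chain keto acid dehydrogenase, had 76.5, 93.8 and 102 CPM at labelled day 7 and 37.7, 45 and 48.3 CPM at labelled day 1 (log2 fold change 1.06 ± 0.08, edgeR adjusted p = 1.8e-10). For Hibch, a valine breakdown enzyme, the labelled day 7 values were 41.6, 48.6 and 54.5 CPM and the labelled day 1 values 63.6, 70.4 and 80.7 CPM (log2 fold change -0.56 ± 0.07, edgeR adjusted p = 3.1e-07). All 3 had separate groups, with Hibch in the opposite direction.

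Glycolytic genes were more often higher than lower at labelled day 7. Of 28 genes 14 were higher and 7 lower (median 0.32). Aldoc, the brain and fetal aldolase, measured 10.7, 15.5 and 20.8 CPM in labelled day 7 DKO libraries, against 1.64, 1.89 and 3.28 CPM at labelled day 1 (log2 fold change 2.85 ± 0.36, edgeR adjusted p = 5.4e-07). Slc2a1 had 13.4, 15.5 and 27.4 CPM at labelled day 7 and 5.03, 6.5 and 8.08 CPM at labelled day 1 (log2 fold change 1.39 ± 0.20, edgeR adjusted p = 1.9e-06). For Eno1, the ubiquitous enolase, the labelled day 7 values were 1295, 1600.2 and 1727 CPM and the labelled day 1 values 636, 679.7 and 814 CPM (log2 fold change 1.17 ± 0.09, edgeR adjusted p = 1.7e-10). Every library of labelled day 7 lay above every library of labelled day 1 for these 3. Hk2, the insulin-responsive hexokinase of adult muscle, measured 68.5, 80.7 and 119 CPM in labelled day 7 DKO libraries, against 137, 154 and 164 CPM at labelled day 1 (log2 fold change -0.86 ± 0.12, edgeR adjusted p = 1.2e-06). Pfkm, muscle phosphofructokinase, had 266, 326 and 349 CPM at labelled day 7 and 526, 543 and 605 CPM at labelled day 1 (log2 fold change -0.79 ± 0.08, edgeR adjusted p = 4.8e-09). For Slc2a4, the insulin-responsive glucose transporter GLUT4, the labelled day 7 values were 56.2, 84.6 and 102 CPM and the labelled day 1 values 112, 121 and 142 CPM (log2 fold change -0.62 ± 0.11, edgeR adjusted p = 6.1e-05). These 3 genes were lower without overlap. In the tricarboxylic acid cycle and pyruvate entry, 3 were higher and 20 lower of 30 (median -0.20), and 1 was higher without m1026, m1046, 69 or control library 13, with pseudogenes left out or with DKO libraries alone, and 0 with upper-quartile scaling. Me3, a mitochondrial malic enzyme, was lower at -1.5 ± 0.09, adjusted p = 2.4e-12, Ogdh, the oxoglutarate dehydrogenase, at -0.97 ± 0.06, adjusted p = 1.5e-11, and Mpc1, a subunit of the mitochondrial pyruvate carrier, at -0.60 ± 0.10, adjusted p = 3.0e-05 (edgeR). Exons of Slc2a1 and Mpc1 overlap other genes over 61.3% and 67.2% of their bases.

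Transcripts of the respiratory chain were lower at labelled day 7 almost throughout. Of 36 complex I genes tested 0 were higher and 34 lower (median -0.40), and of 37 genes of complexes III, IV and V 1 was higher and 32 lower (median -0.44). Ndufa1, an accessory subunit of complex I, measured 122, 129 and 136 CPM in labelled day 7 DKO libraries, against 291, 305 and 351 CPM at labelled day 1 (log2 fold change -1.25 ± 0.10, edgeR adjusted p = 1.8e-10). Ndufa3, another accessory subunit, had 112, 127 and 129.6 CPM at labelled day 7 and 384, 402 and 436 CPM at labelled day 1 (log2 fold change -1.71 ± 0.08, edgeR adjusted p = 3.1e-14). For Cox7a1, the heart and muscle isoform of cytochrome oxidase subunit 7A, the labelled day 7 values were 83.3, 98.4 and 116 CPM and the labelled day 1 values 304, 329 and 391 CPM (log2 fold change -1.78 ± 0.11, edgeR adjusted p = 4.1e-12). The groups were apart for each. Cox8b, the muscle isoform of subunit 8, measured 72.9, 84.5 and 98.8 CPM in labelled day 7 DKO libraries, against 432, 456 and 507 CPM at labelled day 1 (log2 fold change -2.45 ± 0.12, edgeR adjusted p = 7.0e-14). Atp5k, the e subunit of ATP synthase, had 86, 105 and 114 CPM at labelled day 7 and 358, 382 and 422 CPM at labelled day 1 (log2 fold change -1.91 ± 0.09, edgeR adjusted p = 5.1e-14). For Cox6a1, the ubiquitous isoform of subunit 6A, the labelled day 7 values were 431, 472 and 506 CPM and the labelled day 1 values 309, 348 and 427 CPM (log2 fold change 0.38 ± 0.11, edgeR adjusted p = 0.0063). Cox6a1 was the single member of these lists that rose. Cox4i1 and the muscle isoform Cox6a2 had 0 counts in all libraries, and no gene of the mitochondrial genome had a count.

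Short transcripts as a class were lower at labelled day 7. Protein-coding genes of up to 600 bases had a median of -0.32 over 109 genes, those of 600 to 1000 bases -0.15 over 264, those of 1000 to 2000 bases -0.03 over 1599, and those of more than 4000 bases 0.05. The median length was 1643 bases in complex I and 1756 bases in complexes III to V. With the length trend removed, 30 complex I genes were lower and 0 higher (median -0.37), and 33 genes of complexes III to V were lower and 2 higher (median -0.35). Mitochondrial ribosomal proteins were 5 higher and 26 lower of 62 (median -0.13), with 3 higher without 33 or control library 13 and 2 with pseudogenes left out or upper-quartile scaling. Cytosolic ribosomal proteins mostly did not pass the test, 3 higher and 10 lower of 60 (median -0.01), or 7 higher and 9 lower with the length trend removed, and 6 higher with DKO libraries alone and 1 higher with upper-quartile scaling. Rps28 and Rpl38, among the shortest ribosomal protein transcripts, were lower at -1.47 ± 0.13 and -1.42 ± 0.15, and Rps2, a small-subunit protein, was higher by 0.73 ± 0.09; ribosomal protein genes have many near-identical pseudogenes, which makes these values uncertain.

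Regulators of mitochondrial content moved in both directions, 6 higher and 8 lower of 26 (median 0.02). Ppargc1a, the PGC-1alpha coactivator of mitochondrial genes, measured 199, 271 and 371 CPM in labelled day 7 DKO libraries, against 373, 749.5 and 1134 CPM at labelled day 1 (log2 fold change -1.55 ± 0.25, edgeR adjusted p = 1.6e-05). Rxrg, a retinoid X receptor, had 1.57, 3.35 and 4.2 CPM at labelled day 7 and 25, 32.5 and 34.4 CPM at labelled day 1 (log2 fold change -3.35 ± 0.23, edgeR adjusted p = 3.1e-11). For Thrb, a thyroid hormone receptor, the labelled day 7 values were 7.59, 11.8 and 19.1 CPM and the labelled day 1 values 26.9, 34.6 and 54.4 CPM (log2 fold change -1.58 ± 0.26, edgeR adjusted p = 1.8e-05). These 3 were lower with separate groups. Klf15, a transcription factor of amino acid and lipid metabolism under glucocorticoid control, measured 54.2, 76.7 and 174 CPM in labelled day 7 DKO libraries, against 9.73, 11.5 and 15.6 CPM at labelled day 1 (log2 fold change 2.91 ± 0.30, edgeR adjusted p = 2.5e-08). Polg, the mitochondrial DNA polymerase, had 34, 50.1 and 57.7 CPM at labelled day 7 and 12.5, 14.3 and 19 CPM at labelled day 1 (log2 fold change 1.69 ± 0.15, edgeR adjusted p = 1.4e-09). Klf15 and Polg were higher, also with separate groups.

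Genes of mitochondrial transport, fusion and fission, the processes in which RHOT proteins act, were close to even: 8 of 34 were higher and 7 lower, with a median of 0.01. Trak1, the adaptor that joins RHOT proteins to kinesin and dynein, measured 95.4, 102 and 116 CPM in labelled day 7 DKO libraries, against 121, 132 and 140.5 CPM at labelled day 1 (log2 fold change -0.34 ± 0.08, edgeR adjusted p = 5.4e-04). Mtfp1, an inner membrane protein that promotes fission, had 33.7, 39.6 and 50.3 CPM at labelled day 7 and 65.4, 84.4 and 103 CPM at labelled day 1 (log2 fold change -1.07 ± 0.13, edgeR adjusted p = 2.3e-07). For Mief2, a receptor for the fission GTPase DRP1, the labelled day 7 values were 14.4, 16.7 and 20.5 CPM and the labelled day 1 values 23.3, 24.1 and 26.9 CPM (log2 fold change -0.52 ± 0.11, edgeR adjusted p = 3.5e-04). The groups did not overlap for these 3. Pink1, the kinase that marks damaged mitochondria for removal, measured 81.5, 219 and 278 CPM in labelled day 7 DKO libraries, against 34.5, 43.2 and 52.4 CPM at labelled day 1 (log2 fold change 2.27 ± 0.27, edgeR adjusted p = 2.1e-07). Miga1, mitoguardin, an outer membrane protein that promotes fusion, had 17.2, 21.3 and 27.7 CPM at labelled day 7 and 10.3, 11 and 12 CPM at labelled day 1 (log2 fold change 1.03 ± 0.11, edgeR adjusted p = 2.5e-08). For Mtx2, metaxin, an outer membrane protein of import and transport complexes, the labelled day 7 values were 165, 168 and 177 CPM and the labelled day 1 values 99.3, 111 and 128 CPM (log2 fold change 0.59 ± 0.08, edgeR adjusted p = 1.3e-06). These 3 lay higher in all libraries of labelled day 7. The number of lower genes was 11 with pseudogenes left out or with upper-quartile scaling, and 4 without m1067. Mitochondrial chaperones, proteases and import genes were 9 higher and 6 lower of 33 (median 0.02), with 3 lower without 29 or 35 and 11 with upper-quartile scaling. They were led by the import receptor Tomm70a at 1.49 ± 0.17, adjusted p = 1.1e-07 and the matrix protease Lonp1 at 0.96 ± 0.12, adjusted p = 2.4e-07 (edgeR).

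Imprinted genes of fetal growth were higher at labelled day 7. Of 22 tested, 20 were higher at labelled day 7 and 0 lower, with a median of 1.24. Igf2, the main fetal growth factor, measured 528, 581 and 658 CPM in labelled day 7 DKO libraries, against 199.6, 230.2 and 278 CPM at labelled day 1 (log2 fold change 1.34 ± 0.13, edgeR adjusted p = 4.7e-09). H19, the imprinted RNA that shares its control region with Igf2, had 329.9, 383 and 424 CPM at labelled day 7 and 64.1, 84.8 and 106 CPM at labelled day 1 (log2 fold change 2.19 ± 0.18, edgeR adjusted p = 1.1e-09). For Dlk1, a membrane protein of progenitor cells, the labelled day 7 values were 54.2, 68 and 77.2 CPM and the labelled day 1 values 5.99, 9.58 and 17.4 CPM (log2 fold change 2.62 ± 0.26, edgeR adjusted p = 1.5e-08). The labelled day 7 libraries lay above every labelled day 1 library in all 3. Cdkn1c, the imprinted cell cycle inhibitor p57, measured 18.9, 70.3 and 109.9 CPM in labelled day 7 DKO libraries, against 3.59, 4.5 and 5.78 CPM at labelled day 1 (log2 fold change 3.92 ± 0.37, edgeR adjusted p = 9.2e-09). Mest, an imprinted hydrolase chosen after its values were seen, had 686, 884 and 1069 CPM at labelled day 7 and 182, 271 and 336 CPM at labelled day 1 (log2 fold change 1.69 ± 0.22, edgeR adjusted p = 1.1e-06). Exons of Igf2 overlap other annotated genes over nearly their whole length, so its counts are uncertain. Without m1124 and m1128, 19 imprinted genes were higher, and 20 when only libraries with Y-linked transcripts were used.

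Fetal RNA-binding proteins and their LIN28 and HMGA partners followed, with 10 of 12 higher and 0 lower (median 0.75). Igf2bp1, an oncofetal binder of Igf2 mRNA, measured 46.2, 54.9 and 58.9 CPM in labelled day 7 DKO libraries, against 3.2, 5.42 and 6.58 CPM at labelled day 1 (log2 fold change 3.37 ± 0.28, edgeR adjusted p = 1.2e-09). Igf2bp3, its paralog, had 83.9, 95.2 and 102 CPM at labelled day 7 and 23.1, 31.8 and 38.9 CPM at labelled day 1 (log2 fold change 1.58 ± 0.16, edgeR adjusted p = 2.7e-08). For Hmga2, a fetal chromatin protein chosen after its values were seen, the labelled day 7 values were 4.45, 7.45 and 8.65 CPM and the labelled day 1 values 0.92, 1.64 and 2.19 CPM (log2 fold change 2.06 ± 0.28, edgeR adjusted p = 1.2e-06). All 3 had separate groups, and Igf2bp2 was higher by 1.56 ± 0.13. Splicing regulators were 11 higher and 1 lower of 21 (median 0.22), with 2 lower without 55 and 5 with upper-quartile scaling. Rbpms, a splicing factor of cardiomyocytes, was higher by 1.55 ± 0.13, adjusted p = 1.1e-09, and Celf1, a regulator of fetal splicing, by 1.15 ± 0.09, adjusted p = 1.0e-10 (edgeR). With only Y-positive libraries 6 of the fetal RNA-binding and 6 of the splicing genes were higher.

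Cardiac transcription factors were higher in 20 of 29 and lower in 4 (median 0.77). Hey2, a Notch effector of the compact ventricular wall, measured 26.4, 34.1 and 42.7 CPM in labelled day 7 DKO libraries, against 2.77, 3.24 and 4.63 CPM at labelled day 1 (log2 fold change 3.29 ± 0.22, edgeR adjusted p = 3.3e-11). Gata4, a core regulator of heart formation, had 349, 363 and 456 CPM at labelled day 7 and 96.9, 124 and 190.5 CPM at labelled day 1 (log2 fold change 1.57 ± 0.16, edgeR adjusted p = 2.1e-08). For Irx3, a factor of the conduction system, the labelled day 7 values were 10.6, 20.1 and 22.3 CPM and the labelled day 1 values 4.86, 6.72 and 7.9 CPM (log2 fold change 1.48 ± 0.18, edgeR adjusted p = 2.9e-07). The groups did not overlap in any of these. Nkx2-5, Hand1 and Gata5, chosen after their values were seen and all required in early heart formation, were higher by 1.45 ± 0.16, 2.59 ± 0.46 and 3.23 ± 0.37. Heyl, a Notch target of vessels, and Mef2c, a muscle regulator, were lower at -1.26 ± 0.13 and -0.37 ± 0.05. The adjusted p of these 5 genes was at most 4.7e-05 (edgeR). Growth factor genes were 14 higher and 4 lower of 36 (median 0.21), with 7 lower without m1124 and m1128. Erbb2, the receptor through which neuregulin drives cardiomyocyte growth, measured 42.1, 57 and 63.7 CPM in labelled day 7 DKO libraries, against 12.5, 17 and 23.1 CPM at labelled day 1 (log2 fold change 1.72 ± 0.18, edgeR adjusted p = 1.9e-08). Sfrp1, a secreted Wnt antagonist, had 32.6, 76 and 166 CPM at labelled day 7 and 18.7, 20.3 and 22.5 CPM at labelled day 1 (log2 fold change 2.21 ± 0.28, edgeR adjusted p = 5.8e-07). For Pdgfb, the endothelial signal that recruits pericytes, the labelled day 7 values were 5.94, 6.51 and 9.22 CPM and the labelled day 1 values 13.1, 15.6 and 18.4 CPM (log2 fold change -1.21 ± 0.13, edgeR adjusted p = 2.6e-08). Erbb2 and Sfrp1 were higher and Pdgfb lower, each without overlap. Dll4, an arterial Notch ligand, was lower at -1.0 ± 0.12, adjusted p = 1.1e-07 (edgeR). Bmp10, a growth factor of the trabeculated and atrial heart chosen after its values were seen, had 0.467 to 2.63 CPM at labelled day 7 and 0 counts in each library of labelled day 1, where 3 counts would be 0.079 to 0.099 CPM; no fold is given.

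Most genes of G2, mitosis and cytokinesis were higher at labelled day 7, and few genes of DNA replication passed the test. Of 42 division genes 32 were higher at labelled day 7 and 0 lower (median 0.69), whereas of 33 replication genes 1 was higher and 4 lower (median -0.09), the lower ones being 8 without m1092, 7 with DKO libraries alone and 2 without m1124 and m1128. The promoters of Ccnb2 and Plk1 are shown because both genes rose and both hold the cell cycle homology element TTTGAA or TTCGAA, through which division genes are silenced outside G2 and M; matches on either strand are in capitals. They are the RefSeq sequences of mouse build GRCm38.p6, 250 bases before to 50 after the start, at chr9:70421505-70421804, minus strand, and chr7:122159185-122159484, plus strand.
Ccnb2: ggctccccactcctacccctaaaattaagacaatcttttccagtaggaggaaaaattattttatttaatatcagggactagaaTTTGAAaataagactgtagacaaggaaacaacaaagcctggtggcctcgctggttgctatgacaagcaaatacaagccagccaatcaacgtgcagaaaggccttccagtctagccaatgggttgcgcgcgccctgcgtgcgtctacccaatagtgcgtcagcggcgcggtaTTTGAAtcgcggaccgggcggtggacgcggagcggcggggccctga
Plk1: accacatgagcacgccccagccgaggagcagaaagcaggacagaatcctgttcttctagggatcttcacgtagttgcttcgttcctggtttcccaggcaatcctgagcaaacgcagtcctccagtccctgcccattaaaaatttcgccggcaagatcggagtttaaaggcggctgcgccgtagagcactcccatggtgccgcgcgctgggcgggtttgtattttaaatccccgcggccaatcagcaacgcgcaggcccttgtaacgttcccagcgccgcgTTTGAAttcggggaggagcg

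The element was present in 28 of 35 division genes with a promoter in the table (80%), in 21 of the 26 of these that rose, and in 21.7% of all 27025 genes with a promoter of the same length. The list was drawn up by known function, so its excess over all genes does not bear on the rise. A link between the element and the rise was not tested. A match is a stretch of letters and does not show a bound factor. Ccnb2, a mitotic cyclin, measured 65.8, 85.6 and 101 CPM in labelled day 7 DKO libraries, against 40.3, 45.4 and 57.7 CPM at labelled day 1 (log2 fold change 0.85 ± 0.21, edgeR adjusted p = 0.0015). Plk1, the polo-like mitotic kinase, chosen after its values were seen, had 27.6, 51.9 and 71.8 CPM at labelled day 7 and 19.1, 22.9 and 32.3 CPM at labelled day 1 (log2 fold change 1.07 ± 0.29, edgeR adjusted p = 0.0039). For Cdc25b, a phosphatase that triggers entry into mitosis, the labelled day 7 values were 15, 20.4 and 25.3 CPM and the labelled day 1 values 9.56, 10.7 and 12.7 CPM (log2 fold change 0.93 ± 0.20, edgeR adjusted p = 3.3e-04). The Ccnb2 and Cdc25b groups were separate, and those of Plk1 overlapped. Ccnb1, the main mitotic cyclin, measured 61.6, 137 and 184 CPM in labelled day 7 DKO libraries, against 47, 59.3 and 75.2 CPM at labelled day 1 (log2 fold change 1.14 ± 0.27, edgeR adjusted p = 9.4e-04). Kif20a, a kinesin of cytokinesis, had 41.6, 67.1 and 87.2 CPM at labelled day 7 and 28.2, 31.2 and 40.5 CPM at labelled day 1 (log2 fold change 0.99 ± 0.23, edgeR adjusted p = 9.9e-04). For Mki67, the proliferation antigen Ki-67, the labelled day 7 values were 56.4, 88.8 and 122 CPM and the labelled day 1 values 47.9, 59.3 and 66.8 CPM (log2 fold change 0.60 ± 0.26, edgeR adjusted p = 0.050). Ccnb1 rose with overlapping ranges and Kif20a without overlap, and Mki67 missed the threshold of edgeR. Mki67 passed with DESeq2, with DKO libraries alone, with a minimum count of 50 and without m1026, m1124, m1128, both of these last, or control library 13, 56 or m1101. Top2a, the topoisomerase of replicating chromosomes, measured 59.5, 113 and 161 CPM in labelled day 7 DKO libraries, against 61.3, 80.6 and 88 CPM at labelled day 1 (log2 fold change 0.53 ± 0.28, edgeR adjusted p = 0.11). Top2a did not pass, except without m1026.

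The count of risen division genes depended on which libraries entered. It was 18 without m1046 or without m1092, 19 without m1067, 20 without 33 or without 55, and 35 without m1124 and m1128. With only Y-positive libraries 2 genes passed, while 40 of 42 had a positive value (median 0.35). Cyclins and inhibitors of the cell cycle exit list were 13 higher and 8 lower of 25 (median 0.33). Btg1, an antiproliferative coregulator, was higher by 0.88 ± 0.13, and Ccng1, a p53 target, and Ccnd2, a D-type cyclin, were lower at -0.78 ± 0.10 and -0.73 ± 0.07. The 8 lower genes became 5 without m1026, m1067 or m1124.

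The integrated stress response, which halts general translation and induces amino acid and redox genes through the factor ATF4, had more members higher than lower at labelled day 7. Of 46 genes 21 were higher and 5 lower (median 0.31). The promoter of Chac1 is shown because this ATF4 target is among the genes that differed between the genotypes, and because it holds the composite CEBP-ATF element TGATGCAA, here on the reverse strand and in capitals (RefSeq, GRCm38.p6, chr2:119350992-119351291, plus strand).
Chac1: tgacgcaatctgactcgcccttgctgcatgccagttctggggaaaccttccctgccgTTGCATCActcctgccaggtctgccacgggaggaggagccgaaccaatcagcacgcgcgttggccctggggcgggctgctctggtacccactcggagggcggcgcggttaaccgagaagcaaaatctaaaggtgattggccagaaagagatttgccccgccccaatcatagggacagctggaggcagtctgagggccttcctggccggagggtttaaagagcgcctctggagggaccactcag

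The element was found on either strand in 12 of 38 list members with a promoter (31.6%), in 4 of the 15 of these that rose, and in 1.03% of all genes with a promoter. This list too was drawn up by known function, so the excess over all genes does not bear on the rise. Whether risen members held the element more often was not tested. Atf4 measured 37.8, 47.6 and 60.5 CPM in labelled day 7 DKO libraries, against 35.5, 48.1 and 60.9 CPM at labelled day 1 (log2 fold change 0.01 ± 0.13, edgeR adjusted p = 0.96). Asns, asparagine synthetase, had 119.7, 141 and 176 CPM at labelled day 7 and 42.3, 94 and 159 CPM at labelled day 1 (log2 fold change 0.48 ± 0.20, edgeR adjusted p = 0.052). For Gdf15, a secreted stress factor, the labelled day 7 values were 3.59, 5.54 and 21.3 CPM and the labelled day 1 values 8.12, 14.2 and 27.7 CPM (log2 fold change -0.78 ± 0.40, edgeR adjusted p = 0.11). Ranges overlapped for all 3, and none passed with edgeR on all libraries. Asns passed with DESeq2, with limma-voom, with a minimum count of 50, with thinned counts and without 29, 35, m1026 or control library m1091, and Gdf15 with limma-voom and without m1124, m1128 or both. Fgf21, a metabolic hormone induced by mitochondrial stress, measured 0.759, 1.5 and 6.84 CPM in labelled day 7 DKO libraries, against 0.461, 2.75 and 6.22 CPM at labelled day 1 (log2 fold change -0.05 ± 0.48, edgeR adjusted p = 0.94). Slc1a5, a glutamine transporter, had 125, 158 and 188 CPM at labelled day 7 and 51, 55.1 and 65.3 CPM at labelled day 1 (log2 fold change 1.52 ± 0.11, edgeR adjusted p = 8.7e-11). For Ddit4, an inhibitor of the growth kinase complex mTORC1, the labelled day 7 values were 41.2, 63.3 and 145 CPM and the labelled day 1 values 17.2, 23.2 and 35.6 CPM (log2 fold change 1.59 ± 0.35, edgeR adjusted p = 6.0e-04). Fgf21 was low and overlapping, and the other two rose without overlap. Fgf21 passed as lower without m1124 and m1128, at -1.29 (edgeR adjusted p = 0.017). Cth, cystathionine lyase of cysteine synthesis, chosen after its values were seen, measured 2.69, 3.35 and 7.72 CPM in labelled day 7 DKO libraries, against 0.728, 1.23 and 2.21 CPM at labelled day 1 (log2 fold change 1.57 ± 0.33, edgeR adjusted p = 3.2e-04). Gpt2, mitochondrial alanine transaminase, had 21.7, 26.9 and 30.8 CPM at labelled day 7 and 40.9, 45 and 48.9 CPM at labelled day 1 (log2 fold change -0.75 ± 0.11, edgeR adjusted p = 5.5e-06). For Atf3, a stress-induced factor chosen after its values were seen, the labelled day 7 values were 8.39, 21 and 56.3 CPM and the labelled day 1 values 29, 55.8 and 268 CPM (log2 fold change -1.85 ± 0.67, edgeR adjusted p = 0.024). Cth lay higher and Gpt2 lower without overlap, and Atf3 was lower with overlapping ranges. Stc2, a secreted glycoprotein, was higher by 1.28 ± 0.16 and Sesn2, a sensor of amino acid shortage chosen after its values were seen, by 0.81 ± 0.16. Slc7a11, the cystine transporter, was lower at -0.49 ± 0.17. Without m1124 and m1128 13 genes of the list were higher, and Atf3 lost its call without them, without m1046 or without 79.

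Chaperones of the endoplasmic reticulum were 5 of 22 higher and 4 lower, median -0.02, with 2 higher without m1124 and m1128 and 3 without m1092, m1124 or m1128 alone. Cytosolic heat shock genes were 4 of 17 higher and 8 lower, median -0.10. Hspb8, a small heat shock protein of muscle, measured 37.6, 46.1 and 56 CPM in labelled day 7 DKO libraries, against 101, 128 and 164 CPM at labelled day 1 (log2 fold change -1.5 ± 0.13, edgeR adjusted p = 1.2e-09). Hspb6, a cardioprotective small heat shock protein, had 178, 215 and 259.7 CPM at labelled day 7 and 341, 496 and 513 CPM at labelled day 1 (log2 fold change -1.1 ± 0.12, edgeR adjusted p = 2.2e-08). For Bag3, their co-chaperone in the removal of damaged filaments, the labelled day 7 values were 124, 146 and 165 CPM and the labelled day 1 values 194, 214 and 231 CPM (log2 fold change -0.54 ± 0.08, edgeR adjusted p = 2.6e-06). The 3 members of muscle protein quality control lay lower in every library of labelled day 7 than in any of labelled day 1. Antioxidant genes were 8 of 24 higher and 11 lower, median -0.13. Mgst1 and Gstm1, glutathione transferases, were higher by 1.7 ± 0.13 and 1.27 ± 0.09, and Nfe2l2, which encodes NRF2, was lower at -0.49 ± 0.07.

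Interferon-stimulated genes were more often higher, and genes of antigen presentation lower. Of 30 interferon genes 15 were higher and 5 lower (median 0.66), and of 14 antigen presentation genes 0 were higher and 12 lower (median -0.92). The promoter of Isg15 is shown as an example of a risen member with the interferon-stimulated response element, searched as GAAA, any 2 bases and GAAA, whose 3 matches on either strand, some overlapping, are in capitals (RefSeq, GRCm38.p6, chr4:156200769-156201068, minus strand).
Isg15: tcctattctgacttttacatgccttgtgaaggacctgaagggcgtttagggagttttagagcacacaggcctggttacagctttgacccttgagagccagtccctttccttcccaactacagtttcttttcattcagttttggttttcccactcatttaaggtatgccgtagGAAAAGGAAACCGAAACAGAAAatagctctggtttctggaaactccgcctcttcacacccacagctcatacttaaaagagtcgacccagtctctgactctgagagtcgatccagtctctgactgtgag

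The element occurred in 12 of 21 interferon genes with a promoter (57.1%), in 5 of the 10 of these that rose, and in 3.99% of all genes with a promoter. Because the list was drawn up by known function, this excess does not bear on the rise, and a link with the rise was not tested. Isg15, a ubiquitin-like antiviral protein chosen after its values were seen, measured 4.72, 5.99 and 19.7 CPM in labelled day 7 DKO libraries, against 2.95, 4.02 and 5.79 CPM at labelled day 1 (log2 fold change 1.0 ± 0.36, edgeR adjusted p = 0.022). Irf7, the regulator that amplifies interferon, chosen after its values were seen, had 8.6, 14.1 and 30.7 CPM at labelled day 7 and 6.0, 7.29 and 10.8 CPM at labelled day 1 (log2 fold change 1.04 ± 0.27, edgeR adjusted p = 0.0025). For Gbp2, a GTPase induced by interferon gamma, the labelled day 7 values were 4.13, 4.99 and 6.7 CPM and the labelled day 1 values 9.29, 10.9 and 19.1 CPM (log2 fold change -1.2 ± 0.20, edgeR adjusted p = 1.8e-05). Isg15 and Irf7 overlapped between the groups, and both were highest in m1092; Gbp2 was lower without overlap. Without m1092, 7 interferon genes were higher and Isg15 lost its call. With only Y-positive libraries 0 were higher by edgeR, and also 0 at an unadjusted p of 0.05. Cd74, the invariant chain of MHC class II, measured 4.99, 5.65 and 6.48 CPM in labelled day 7 DKO libraries, against 14.9, 22.4 and 27.5 CPM at labelled day 1 (log2 fold change -1.93 ± 0.19, edgeR adjusted p = 1.2e-08). H2-K1, an MHC class I heavy chain, had 24.4, 28 and 36.1 CPM at labelled day 7 and 38.5, 40.3 and 67.6 CPM at labelled day 1 (log2 fold change -0.63 ± 0.19, edgeR adjusted p = 0.0069). Both lay lower without overlap. The class II genes mark immune cells, and lymphocyte markers were lower in 6 of 6 tested, out of 10 listed. Their sums were low, at 4.17 to 6.42 CPM at labelled day 7 and 8.23 to 17.2 CPM at labelled day 1. With a minimum count of 50, 1 lymphocyte marker was lower. The part of immune cells in these values was not tested. Ifi27, an interferon-induced mitochondrial protein, was lower at -1.16 ± 0.17, and Lgals3bp, a secreted glycoprotein, higher by 0.74 ± 0.16.

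Matrix genes differed in both directions. Collagens were 9 of 30 higher and 16 lower, median -0.34, and other matrix genes 4 of 38 higher and 19 lower, median -0.29. Col3a1, a fibrillar collagen, measured 904, 1036 and 1174 CPM in labelled day 7 DKO libraries, against 1954, 2097 and 2239 CPM at labelled day 1 (log2 fold change -1.0 ± 0.10, edgeR adjusted p = 3.7e-09). Col1a1, the main fibrillar collagen, had 1618, 1733 and 2046 CPM at labelled day 7 and 1996, 2242 and 2593 CPM at labelled day 1 (log2 fold change -0.35 ± 0.12, edgeR adjusted p = 0.014). For Col15a1, a collagen of the muscle basement membrane, the labelled day 7 values were 60.1, 64.8 and 77.8 CPM and the labelled day 1 values 197, 212 and 257 CPM (log2 fold change -1.7 ± 0.10, edgeR adjusted p = 1.5e-12). Col1a1 overlapped and the others did not. Dcn, decorin, which binds collagen fibrils, measured 215, 223 and 230.4 CPM in labelled day 7 DKO libraries, against 516, 599.8 and 650.3 CPM at labelled day 1 (log2 fold change -1.42 ± 0.09, edgeR adjusted p = 6.4e-12). Lum, lumican, a related proteoglycan, had 70.6, 76.1 and 84.1 CPM at labelled day 7 and 203, 222 and 278 CPM at labelled day 1 (log2 fold change -1.55 ± 0.11, edgeR adjusted p = 5.8e-11). For Fbn2, the fetal fibrillin, the labelled day 7 values were 134, 151 and 192 CPM and the labelled day 1 values 49.6, 63 and 83.4 CPM (log2 fold change 1.28 ± 0.15, edgeR adjusted p = 9.8e-08). Decorin and lumican were lower and Fbn2 higher, without overlap. Vcan, a proteoglycan of the developing heart, was higher by 0.98 ± 0.14, Col23a1 and Col13a1, transmembrane collagens, by 1.89 ± 0.16 and 1.58 ± 0.13, and Mfap4, a microfibril protein, was lower at -1.9 ± 0.20, as was Col8a1 at -2.24 ± 0.26. In tissue RNA, fewer cells of a type and less RNA per cell cannot be told apart. Of 12 fibroblast markers 11 were lower and 1 higher (median -0.94), with sums of 3799 to 4513 CPM at labelled day 7 and 6092 to 7175 CPM at labelled day 1, a list that shares collagens with those above.

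Markers of other cell types moved with the labelled age as well. Endothelial markers were 0 of 14 higher and 11 lower, median -0.54 (sums 1660.0 to 1898 CPM at labelled day 7 and 2398 to 2691 CPM at labelled day 1), while endocardial markers were 6 of 8 higher and 0 lower, median 0.51 (sums 249 to 333 CPM at labelled day 7 and 126 to 152 CPM at labelled day 1). Plvap, a protein of fenestrated and fetal endothelium chosen after its values were seen, measured 57.4, 63 and 88.4 CPM in labelled day 7 DKO libraries, against 5.37, 6.58 and 7.44 CPM at labelled day 1 (log2 fold change 3.38 ± 0.14, edgeR adjusted p = 1.4e-14). Npr3, the clearance receptor for natriuretic peptides and an endocardial marker, chosen after its values were seen, had 9.55, 18.4 and 29.6 CPM at labelled day 7 and 2.11, 3.63 and 4.88 CPM at labelled day 1 (log2 fold change 2.36 ± 0.23, edgeR adjusted p = 6.2e-09). Both were higher in every library of labelled day 7. Pericyte markers were 1 of 9 higher and 8 lower, median -1.01, smooth muscle 2 of 7 higher and 5 lower, median -0.60, epicardial 3 of 10 higher and 4 lower, median 1.03 and lymphatic endothelial 3 of 6 higher and 1 lower, median 0.35. Erythroid markers were 0 of 8 higher and 8 lower, median -1.2 (sums 6471 to 9489 CPM at labelled day 7 and 10739 to 24925 CPM at labelled day 1), and 5 were lower with only Y-positive libraries. For Hbb-bs, adult beta globin, chosen after its values were seen, the labelled day 7 values were 1104, 1293 and 1552 CPM and the labelled day 1 values 2066, 3618 and 4488 CPM (log2 fold change -1.39 ± 0.17, edgeR adjusted p = 2.9e-07). Adult globin did not overlap. Macrophage markers were 2 of 14 higher and 5 lower, median -0.15, neutrophil and monocyte 0 of 8 higher and 1 lower, median 0.10, mast cell 3 of 5 higher and 2 lower, median 1.01, platelet 4 of 6 higher and 1 lower, median 0.44 and nerve 2 of 7 higher and 2 lower, median -0.33. Some of these counts moved with single libraries. For platelet markers they were 2 higher and 0 lower without 29, and 0 were lower without 55, 69, m1026, m1046, m1067 or m1092. With a minimum count of 50, or with thinned counts, 1 platelet marker was higher. A minimum count of 50 also left 1 mast cell and 1 nerve marker lower. For neutrophil and monocyte markers 1 was higher at an unadjusted p of 0.05 (edgeR), with limma-voom and without 79, m1046, m1124 or m1128, and with DESeq2 0 were. The single lower lymphatic marker lost its call without 29, 55, 79, m1026 or m1046, and 1 nerve marker was lower without 55.

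Markers of ventricular cardiomyocytes were abundant in all DKO libraries. There were 11 tested ventricular markers, of which 3 were higher and 6 lower. Their summed levels were 48684 to 61127 CPM at labelled day 7 and 59755 to 64160.1 CPM at labelled day 1. Phospholamban (Pln) had 0 counts throughout, as did the actin genes Actc1 and Acta1, which does not show that these transcripts were absent. Atrial markers were 9 of 12 higher and 0 lower, median 1.43, with sums of 877 to 3114 CPM at labelled day 7 and 376 to 1084 CPM at labelled day 1. Myl7, the atrial regulatory light chain, measured 94.5, 195 and 1043 CPM in labelled day 7 DKO libraries, against 0.564, 3.29 and 17.3 CPM at labelled day 1 (log2 fold change 6.01 ± 1.04, edgeR adjusted p = 5.5e-05). The 2 highest Myl7 levels, 1043 and 548 CPM, belonged to m1124 and m1128. The part of atrial tissue in these values was not tested. Skeletal muscle markers were 1 of 8 higher and 5 lower, median -0.81, adipocyte 0 of 2 higher and 1 lower, median -0.26, valve and cartilage 1 of 5 higher and 0 lower, median 0.35, and genes of lung, liver and thymus 1 of 3 higher and 0 lower, median 0.57. Of these, 2 skeletal muscle markers were higher without m1092 or m1128, 2 valve and cartilage markers without m1026 or m1067, and 2 genes of lung, liver and thymus without 79, m1046 or m1067. With a minimum count of 50, 3 skeletal muscle markers were lower and 0 valve and cartilage markers higher. Of 4 Y-linked genes 1 was lower, and Eif2s3y, a Y-linked translation factor, measured 0.0359, 0.131 and 69.4 CPM in labelled day 7 DKO libraries, against 49.9, 88.8 and 91.8 CPM at labelled day 1 (log2 fold change -1.78 ± 1.28, edgeR adjusted p = 0.25). Xist had 0 counts in all libraries and gives no check of sex.

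Cell adhesion of the intercalated disc and costamere was 15 of 38 higher and 14 lower, median -0.02. Pkp2, a desmosomal plakophilin, measured 189.9, 227 and 297 CPM in labelled day 7 DKO libraries, against 91.4, 109 and 128 CPM at labelled day 1 (log2 fold change 1.09 ± 0.09, edgeR adjusted p = 5.2e-10). Itgb1, the beta 1 integrin, had 693, 817 and 845 CPM at labelled day 7 and 374, 427 and 490.2 CPM at labelled day 1 (log2 fold change 0.87 ± 0.08, edgeR adjusted p = 3.8e-09). For Itga7, the laminin-binding integrin of mature muscle, the labelled day 7 values were 37.6, 48 and 59.1 CPM and the labelled day 1 values 129.8, 159 and 171 CPM (log2 fold change -1.66 ± 0.13, edgeR adjusted p = 1.7e-10). Pkp2 and Itgb1 were higher and Itga7 lower, without overlap. Cardiac stress genes were 8 of 30 higher and 10 lower, median -0.37, and 4 were lower with only Y-positive libraries. Nppa, the atrial natriuretic peptide, which the fetal ventricle also makes, measured 287, 399 and 999 CPM in labelled day 7 DKO libraries, against 90.9, 252 and 787 CPM at labelled day 1 (log2 fold change 0.62 ± 0.49, edgeR adjusted p = 0.30). Nppb, the B-type natriuretic peptide, had 34.8, 104 and 126 CPM at labelled day 7 and 78.8, 152 and 208 CPM at labelled day 1 (log2 fold change -0.75 ± 0.42, edgeR adjusted p = 0.14). Neither passed the test in DKO, and their ranges overlapped. For Nppa, 69.25% of exon bases overlap other genes. Hypoxia genes were 9 of 22 higher and 2 lower, median 0.26, and 5 were lower without m1092, with pseudogenes left out or with upper-quartile scaling, and 4 without control library 13. Epas1, the hypoxia-inducible factor HIF-2alpha, measured 130.3, 159 and 183 CPM in labelled day 7 DKO libraries, against 328, 361 and 402 CPM at labelled day 1 (log2 fold change -1.2 ± 0.10, edgeR adjusted p = 2.8e-10). Pdk1, a kinase that holds back pyruvate oxidation under hypoxia, had 214, 297 and 428 CPM at labelled day 7 and 163, 187 and 208 CPM at labelled day 1 (log2 fold change 0.68 ± 0.13, edgeR adjusted p = 1.4e-04). Epas1 was lower and Pdk1 higher, without overlap. Genes of p53 and apoptosis were 10 of 30 higher and 7 lower, median 0.07, led by the p53 target Phlda3 at 1.23 ± 0.15 and the death receptor Eda2r at -1.85 ± 0.16. Lysosome and autophagy genes were 5 of 32 higher and 12 lower, median -0.10.

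Microtubule genes included a tau and a tubulin gene that were lower at labelled day 7. The list was 5 of 26 higher and 9 lower, median -0.06. Mapt, the microtubule-associated protein tau, measured 1.51, 2.06 and 3.49 CPM in labelled day 7 DKO libraries, against 54.8, 62.5 and 75.8 CPM at labelled day 1 (log2 fold change -4.82 ± 0.26, edgeR adjusted p = 1.4e-12). Tuba8, an alpha tubulin of muscle, had 1.88, 2.95 and 3.85 CPM at labelled day 7 and 42.6, 63.7 and 80.2 CPM at labelled day 1 (log2 fold change -4.38 ± 0.27, edgeR adjusted p = 1.9e-11). For Vash2, a tubulin carboxypeptidase, the labelled day 7 values were 52.2, 58.7 and 83.8 CPM and the labelled day 1 values 8.09, 14.1 and 21.8 CPM (log2 fold change 2.09 ± 0.28, edgeR adjusted p = 1.4e-06). Tau and Tuba8 were lower and Vash2 higher, all without overlap, and Tuba4a was lower at -2.01 ± 0.17. Creatine and oxygen storage genes were 2 of 17 higher and 9 lower, median -0.43. Mb, myoglobin, the oxygen store of muscle, measured 512, 627 and 775 CPM in labelled day 7 DKO libraries, against 1898, 1975 and 2128 CPM at labelled day 1 (log2 fold change -1.63 ± 0.14, edgeR adjusted p = 7.4e-10). Ckmt2, the mitochondrial creatine kinase of muscle, had 235, 368 and 460.5 CPM at labelled day 7 and 1107, 1432 and 1649.8 CPM at labelled day 1 (log2 fold change -1.99 ± 0.17, edgeR adjusted p = 1.2e-09). For Ckm, the cytosolic muscle creatine kinase, the labelled day 7 values were 1522, 1788 and 1932 CPM and the labelled day 1 values 1386, 1538 and 1642 CPM (log2 fold change 0.20 ± 0.07, edgeR adjusted p = 0.016). Mb and Ckmt2 were lower without overlap; Ckm was slightly higher, with overlapping ranges. Cygb, cytoglobin, was lower at -1.61 ± 0.08, and Ftl1, the ferritin light chain, higher by 0.57 ± 0.07. Circadian clock genes were 7 of 17 higher and 4 lower, median -0.06. Dbp, a clock output factor, measured 5.34, 13.4 and 22.2 CPM in labelled day 7 DKO libraries, against 1.91, 2.54 and 3.87 CPM at labelled day 1 (log2 fold change 2.29 ± 0.38, edgeR adjusted p = 2.7e-05). Per2, a clock repressor, had 37.6, 53.8 and 85.4 CPM at labelled day 7 and 17.7, 27.1 and 37.4 CPM at labelled day 1 (log2 fold change 1.06 ± 0.23, edgeR adjusted p = 5.7e-04). For Bhlhe40, a clock-linked repressor, the labelled day 7 values were 25.7, 42.8 and 51.9 CPM and the labelled day 1 values 74.6, 84 and 100.2 CPM (log2 fold change -1.02 ± 0.17, edgeR adjusted p = 2.7e-05). Dbp and Per2 were higher and Bhlhe40 lower, without overlap. The hour of tissue collection is not given in the sources used here. Targets of glucocorticoid and thyroid hormone were 7 of 21 higher and 7 lower, median 0.14.

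Among protein-coding genes outside every list, the 10 largest rises with separate groups were Tent5b at 7.63 ± 0.82, Ankrd63 at 5.98 ± 0.41, Hif3a at 4.66 ± 0.32, Nrtn at 4.39 ± 0.43, Cdh3 at 4.25 ± 0.36, Sap30 at 4.1 ± 0.32, Gipr at 3.99 ± 0.34, Slc22a17 at 3.95 ± 0.37, Gria1 at 3.89 ± 0.35 and Ring1 at 3.46 ± 0.27. Hif3a, a hypoxia-inducible factor subunit that restrains the others, measured 31.9, 39.1 and 112 CPM in labelled day 7 DKO libraries, against 1.77, 2.01 and 2.19 CPM at labelled day 1 (log2 fold change 4.66 ± 0.32, edgeR adjusted p = 5.4e-11). Gipr, the receptor for the incretin GIP, had 7.66, 12.2 and 23.8 CPM at labelled day 7 and 0.453, 0.837 and 1.21 CPM at labelled day 1 (log2 fold change 3.99 ± 0.34, edgeR adjusted p = 1.7e-09). For Cdh3, P-cadherin, the labelled day 7 values were 8.42, 15.9 and 19.8 CPM and the labelled day 1 values 0.368, 0.788 and 1.42 CPM (log2 fold change 4.25 ± 0.36, edgeR adjusted p = 1.4e-09). Hif3a ranged widely at labelled day 7, with m1026 the highest. The 10 largest falls included Itgb6 at -3.87 ± 0.30, Bdnf at -3.37 ± 0.33, Nr4a3 at -3.34 ± 0.55, Myo3a at -3.28 ± 0.15, Cilp at -3.25 ± 0.28, Myh14 at -3.16 ± 0.31, Scgb1c1 at -3.05 ± 0.19, Ip6k3 at -2.94 ± 0.21 and Pcolce2 at -2.9 ± 0.16. Bdnf, a neurotrophic factor that vessels and muscle also make, measured 0.418, 1.21 and 1.69 CPM in labelled day 7 DKO libraries, against 8.67, 10.5 and 18.6 CPM at labelled day 1 (log2 fold change -3.37 ± 0.33, edgeR adjusted p = 8.8e-09). Cilp, a matrix protein that fibroblasts secrete, had 0.354, 1.01 and 1.42 CPM at labelled day 7 and 5.96, 8.82 and 12.4 CPM at labelled day 1 (log2 fold change -3.25 ± 0.28, edgeR adjusted p = 1.2e-09). For Pcolce2, an enhancer of procollagen processing, the labelled day 7 values were 1.38, 1.86 and 2.73 CPM and the labelled day 1 values 11.6, 14.9 and 16.2 CPM (log2 fold change -2.9 ± 0.16, edgeR adjusted p = 5.5e-13). Exons of Scgb1c1 lie wholly within other genes, so its counts are uncertain.

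The same comparison was made in control ventricles, and few genes passed the test of its difference from DKO, which does not show that the others were equal. In controls 9206 genes passed (53.1%), 4757 higher (27.4%) and 4449 lower (25.6%) at labelled day 7. Of the genes called in DKO and in controls, 7159 were shared, or 78.5% of the DKO calls and 77.8% of the control calls, and 7135 of these had the same sign. The difference of the labelled-age effects, DKO minus control, passed for 187 genes (1.08%), of which 54 were positive (0.311%) and 133 negative (0.766%). Pseudogenes, 1594 of the 17352 genes tested, made up 87 of the negative ones and 0 of the positive ones. In DKO, 202 pseudogenes were higher and 738 lower at labelled day 7. Leaving out m1124 and m1128 left 49 calls, and leaving out a single library gave 90 calls without m1124 up to 287 without control library 13. Without m1124 and m1128 no DKO library of labelled day 7 holds Y-linked transcripts, while 2 control libraries of that label do. In that setting the difference between genotypes cannot be told apart from this imbalance. The total also moved by more than 1.5 times without DKO library 69 (108), 79 (113) or m1128 (111) and without control library 14 (118), 56 (108), m1022 (113), m1064 (92), m1066 (109) or m1091 (94).

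**Figure D3:**
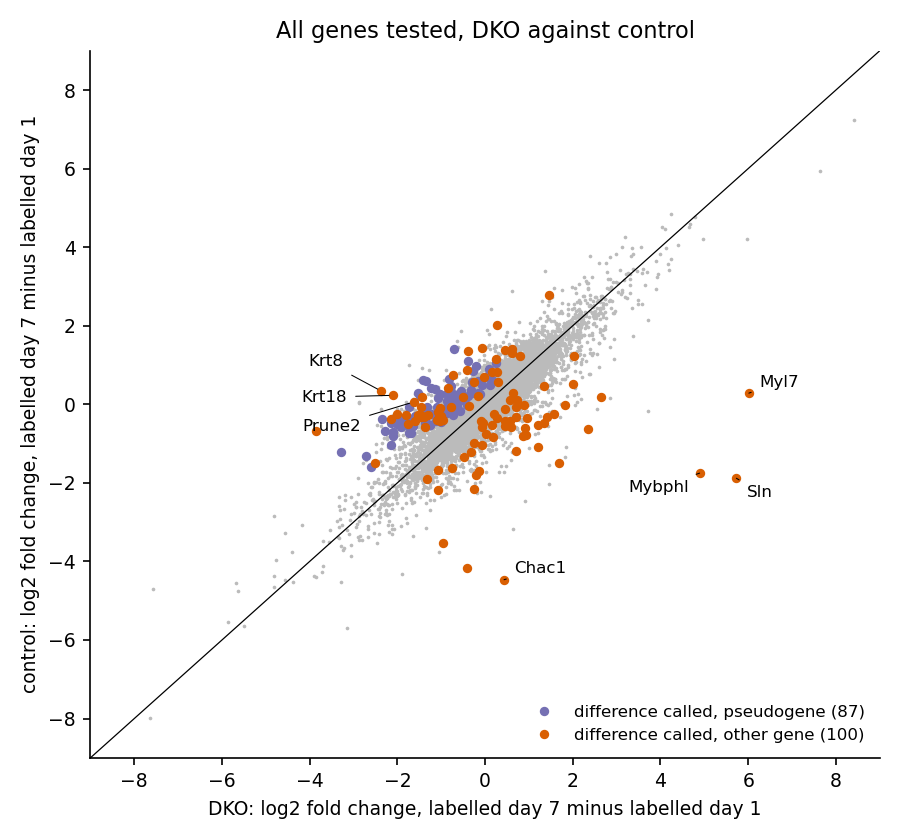
Log2 fold change of each tested gene, labelled day 7 minus labelled day 1, in DKO (horizontal) and control (vertical); grey points are genes whose difference did not pass, coloured points the 187 that did (87 pseudogenes in purple, other genes in orange), and the line marks equality. Sln, Mybphl and Myl7 lie right of the line, Krt8, Krt18 and Prune2 left of it.

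The lists were set side by side in the genotypes. Division genes were 32 higher and 0 lower in DKO, and 42 higher and 0 lower in controls, with medians of 0.69 in DKO and 1.12 in controls, and 0 division genes passed the test of the difference by edgeR, at an adjusted or an unadjusted p of 0.05, by DESeq2 or by limma-voom. Complex I genes were 0 higher and 34 lower in DKO, and 0 higher and 35 lower in controls, and fatty acid oxidation 2 higher and 24 lower in DKO, and 3 higher and 26 lower in controls. Imprinted genes were 20 higher and 0 lower in DKO, and 18 higher and 0 lower in controls. The integrated stress response list was 21 higher and 5 lower in DKO, and 16 higher and 8 lower in controls, with medians of 0.31 in DKO and 0.04 in controls. Ion channels were 9 higher and 9 lower in DKO, and 2 higher and 14 lower in controls, with medians of 0.03 in DKO and -0.58 in controls. Atrial markers were 9 higher and 0 lower in DKO, and 5 higher and 1 lower in controls, with medians of 1.43 in DKO and 0.32 in controls. Cardiac stress genes had medians of -0.37 in DKO and 0.08 in controls. A call in a single genotype does not show a difference, and the genes whose difference passed are given next.

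**Figure D4:**
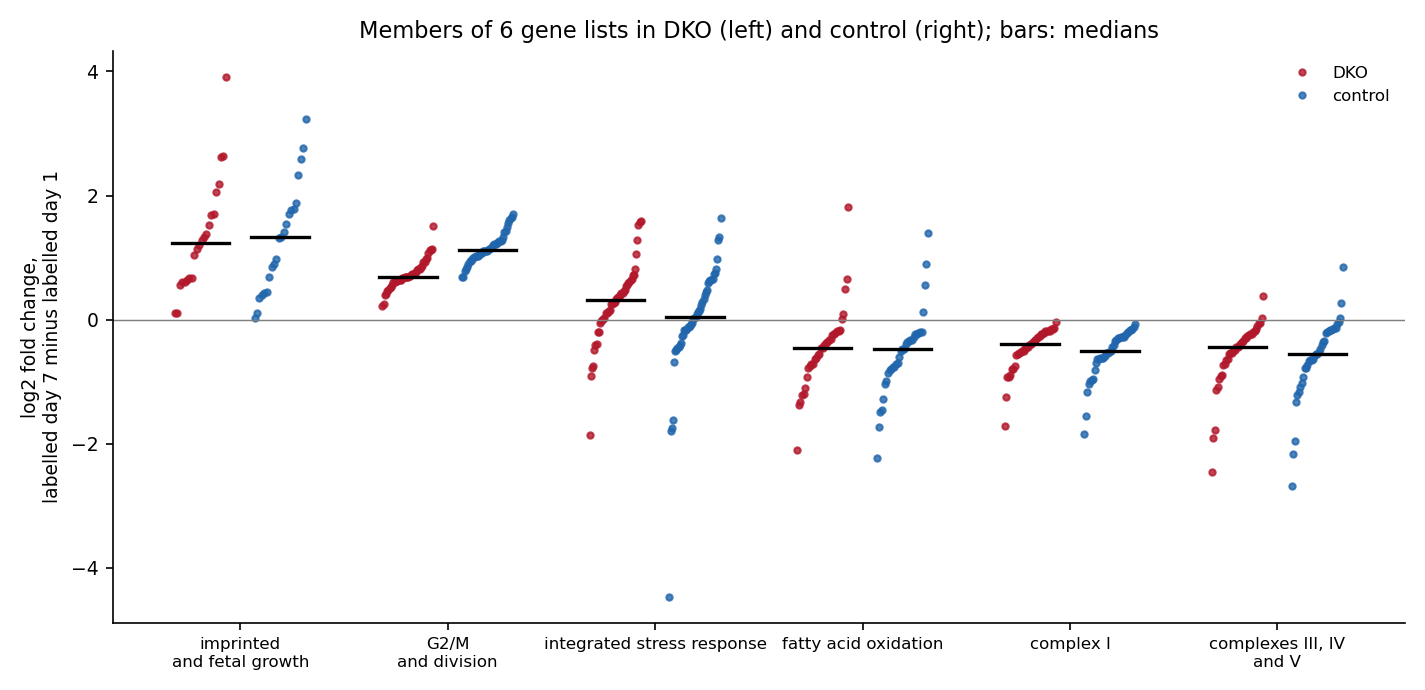
Log2 fold change of every tested member of 6 gene lists, labelled day 7 minus labelled day 1, with DKO in red on the left and control in blue on the right of each pair; black bars are medians. Division genes have medians of 0.69 in DKO and 1.12 in controls, and complex I genes lie below 0 in both.

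Several genes with a positive difference are known from atrial muscle. Of 12 atrial markers, 4 passed with a positive difference and 0 with a negative one (edgeR). At an unadjusted p of 0.05 (edgeR), and with DESeq2, 1 had a negative difference. Nppa, also an atrial marker, had a negative difference that did not pass. Its log2 fold change was 0.62 ± 0.49 in DKO and 2.88 ± 0.53 in controls (difference -2.26 ± 0.70, edgeR adjusted p = 0.14). For Sln, sarcolipin, the log2 fold change was 5.73 ± 1.28 in DKO and -1.88 ± 1.04 in controls (difference 7.61 ± 1.65, edgeR adjusted p = 0.028). For Myl7, the atrial regulatory light chain, the log2 fold change was 6.01 ± 1.04 in DKO and 0.28 ± 0.82 in controls (difference 5.73 ± 1.27, edgeR adjusted p = 0.031). Mybphl, a myosin-binding protein of the atrium and conduction system, had 0.754, 4.02 and 37.8 CPM in DKO at labelled day 7, 0.0993, 0.281 and 0.883 CPM in DKO at labelled day 1, 0.548, 1.11 and 3.83 CPM in controls at labelled day 7 and 0.11, 4.94 and 12.9 CPM in controls at labelled day 1, and the difference was 6.64 ± 1.36, edgeR adjusted p = 0.019. In controls the median of Sln was 1.9 CPM at labelled day 7 and 17.8 CPM at labelled day 1, and that of Myl7 136 CPM at labelled day 7 and 103 CPM at labelled day 1. In all 3 genes the DKO libraries of labelled day 1 had the lowest median of the 4 groups. Libraries m1124 and m1128 held the top of labelled day 7 for Myl7 and for Sln. For Sln they had 139.7 and 67.5 CPM, and the next library, m1067, had 26.1 CPM. Without m1124 and m1128 the difference was 5.49 for Sln, 4.41 for Myl7 and 4.61 for Mybphl, with edgeR adjusted p of 0.124, 0.126 and 0.0828. With limma-voom on all libraries the adjusted p was 0.23 for Sln, 0.24 for Myl7 and 0.27 for Mybphl. For Dkk3, a secreted Wnt-related protein of the atrium, the log2 fold change was 1.34 ± 0.27 in DKO and -0.49 ± 0.27 in controls (difference 1.82 ± 0.38, edgeR adjusted p = 0.019). For Kcnj3, a subunit of the atrial acetylcholine-gated potassium channel, the log2 fold change was 0.95 ± 0.19 in DKO and -0.36 ± 0.19 in controls (difference 1.31 ± 0.27, edgeR adjusted p = 0.015). For Tbx5, a factor of atrial and ventricular identity, the log2 fold change was 1.35 ± 0.16 in DKO and 0.47 ± 0.15 in controls (difference 0.89 ± 0.22, edgeR adjusted p = 0.042). Without m1124 and m1128 the difference was 1.16 for Dkk3, which passed, and 1.14 for Kcnj3 and 0.67 for Tbx5, which did not (edgeR adjusted p = 0.034, 0.062 and 0.10). Further positive differences were those of Pdzrn4, a ubiquitin ligase, at 1.9 ± 0.43, edgeR adjusted p = 0.031, Unc5c, a netrin receptor, at 1.85 ± 0.38, edgeR adjusted p = 0.016, Kctd8, a partner of GABA-B receptors, at 1.66 ± 0.39, edgeR adjusted p = 0.037, and Lsamp, a neural adhesion protein, at 1.58 ± 0.36, edgeR adjusted p = 0.030. Fgf14, a sodium channel partner, differed by 1.17 ± 0.19, edgeR adjusted p = 0.0032, Rgs6, which curbs acetylcholine signals, by 1.0 ± 0.20, edgeR adjusted p = 0.012, and Cacna1g, a T-type calcium channel, by 0.69 ± 0.17, edgeR adjusted p = 0.047. Epo, erythropoietin, differed by 0.88 ± 0.22, edgeR adjusted p = 0.047, and Npas2, a clock factor, by 0.57 ± 0.13, edgeR adjusted p = 0.032.

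Stress genes contributed a further group. Chac1, which breaks down glutathione and is induced by ATF4, had 6.94, 11 and 17 CPM in DKO at labelled day 7, 6.42, 8.19 and 11.1 CPM in DKO at labelled day 1, 0.0365, 0.199 and 0.256 CPM in controls at labelled day 7 and 1.01, 3.71 and 7.47 CPM in controls at labelled day 1. Chac1 did not pass in DKO at 0.43 ± 0.30 and was lower in controls at -4.47 ± 0.49, a difference of 4.9 ± 0.59, edgeR adjusted p = 1.8e-04. In control libraries of labelled day 7, 3 counts would be 0.11 to 0.173 CPM. The size of the control fold change therefore rests on few reads. All 6 DKO libraries of labelled day 7 held more Chac1 than any control library of that label. Its difference passed in each of 24 fits that left out 1 library, and without m1124 and m1128. For Nupr1, a stress-induced chromatin protein, the log2 fold change was -0.20 ± 0.25 in DKO and -1.79 ± 0.30 in controls (difference 1.6 ± 0.39, edgeR adjusted p = 0.046). For Gpt2, the alanine transaminase, the log2 fold change was -0.75 ± 0.11 in DKO and -1.61 ± 0.12 in controls (difference 0.86 ± 0.16, edgeR adjusted p = 0.0092). Nupr1 passed in 5 of the 24 fits and Gpt2 in all 24. Without m1124 and m1128 the difference was 1.3 for Nupr1 and 0.77 for Gpt2, and neither passed (edgeR adjusted p = 0.17 and 0.051).

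The negative differences included 2 keratins. Krt8, a keratin of simple epithelia that injured cardiomyocytes also express, had 1.65, 3.35 and 4.21 CPM in DKO at labelled day 7, 7.71, 17.6 and 24 CPM in DKO at labelled day 1, 1.16, 2.44 and 3.03 CPM in controls at labelled day 7 and 0.984, 1.26 and 5.07 CPM in controls at labelled day 1. The Krt8 fold change was -2.37 ± 0.35 in DKO and 0.34 ± 0.38 in controls (difference -2.7 ± 0.52, edgeR adjusted p = 0.011). For Krt18, its partner keratin, the log2 fold change was -2.1 ± 0.29 in DKO and 0.23 ± 0.30 in controls (difference -2.32 ± 0.41, edgeR adjusted p = 0.0069). The DKO libraries of labelled day 1 were the high group for both. Krt8 and Krt18 are also epicardial markers, and the difference did not pass for the other 8 epicardial genes, of which Wt1 and Krt19 had an unadjusted p below 0.05. For Prune2, a protein of nerve and muscle, the log2 fold change was -1.63 ± 0.16 in DKO and 0.06 ± 0.16 in controls (difference -1.69 ± 0.23, edgeR adjusted p = 5.2e-04). For S100a1, the calcium sensor, the log2 fold change was -1.04 ± 0.07 in DKO and -0.43 ± 0.07 in controls (difference -0.60 ± 0.10, edgeR adjusted p = 0.0025). Krt8, Krt18, Prune2 and S100a1 passed in all 24 fits that left out 1 library and without m1124 and m1128. The last setting leaves no Y-positive DKO library at labelled day 7. With only Y-positive libraries Prune2 and S100a1 passed (edgeR adjusted p = 0.043 and 0.0064). Krt8 and Krt18 did not pass there, at -2.16 and -1.90 (edgeR adjusted p = 0.34 and 0.21). Tfcp2l1, a transcription factor, differed by -1.74 ± 0.42, edgeR adjusted p = 0.042, Bmp7, a bone morphogenetic protein, by -1.32 ± 0.31, edgeR adjusted p = 0.036, Map1a, a microtubule-binding protein, by -0.79 ± 0.20, edgeR adjusted p = 0.049, and Tmem116 by -1.19 ± 0.27, edgeR adjusted p = 0.028. The myosins Myh3, Myh13, Myh1 and Myh4 differed by -1.62, -1.26, -1.14 and -1.06, Aldoart2 by -1.53 and Nlrp4e by -1.75; these genes have near-identical relatives, between which reads may be split, and are uncertain. Of the 32 named genes 32 passed with DESeq2, 21 with limma-voom and 10 without m1124 and m1128.

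**Figure D5:**
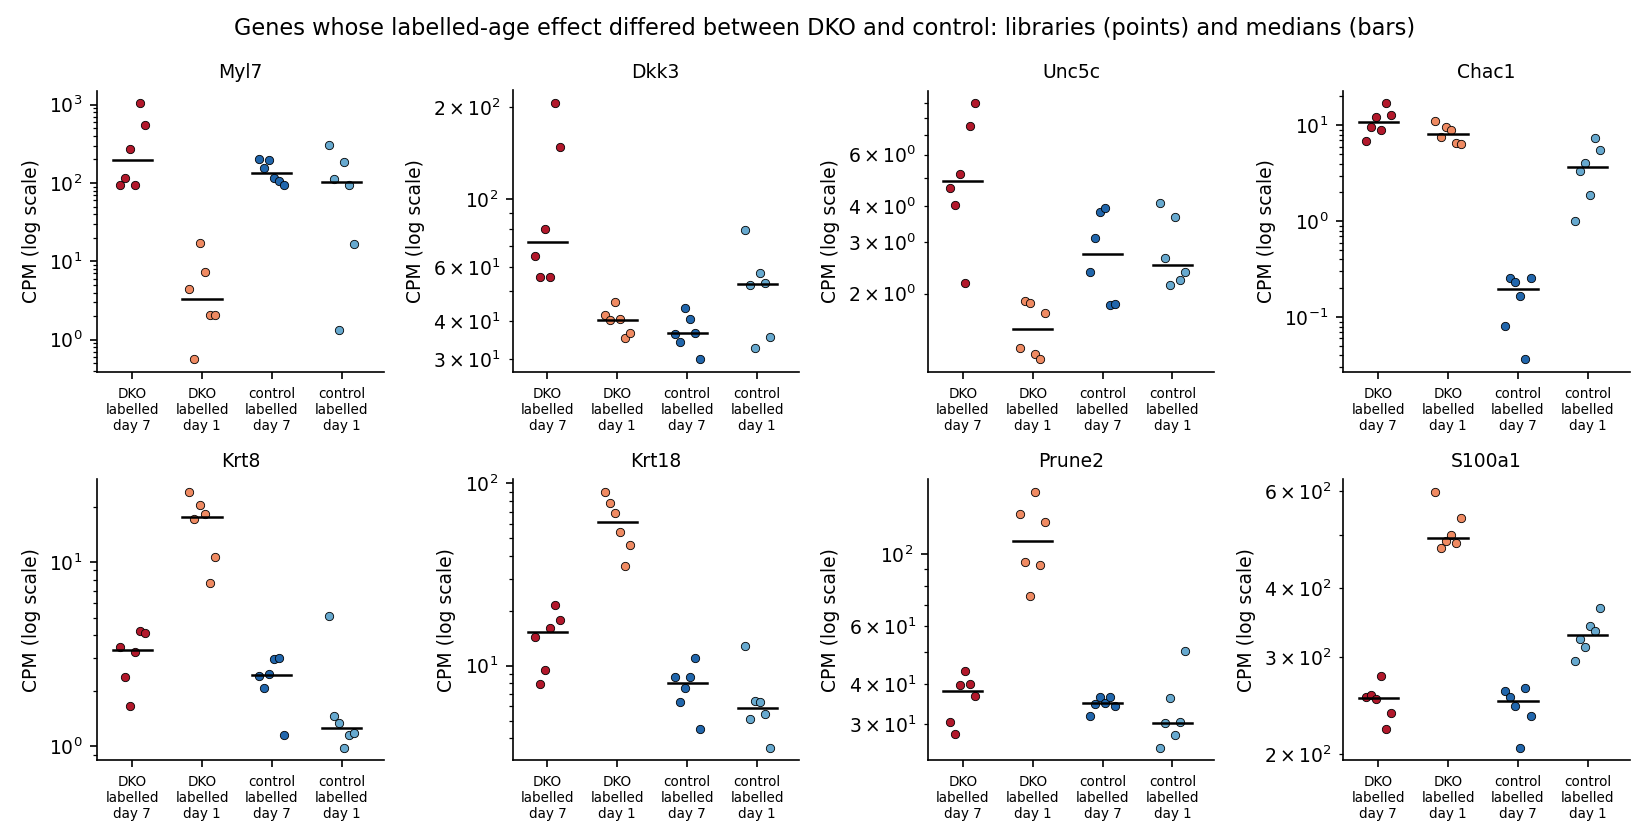
CPM (log axis) of 8 genes whose labelled-age effect differed between DKO and control, in each library (points) with group medians (bars); DKO left of control, labelled day 7 left of labelled day 1. Chac1 lies at 6.94 to 17 CPM in DKO and 0.0365 to 0.256 CPM in controls at labelled day 7, and Krt8 is highest in DKO at labelled day 1.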

How the data were processed

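RNA was isolated from left ventricular tissue and 100 ng of total RNA entered a low-input library kit that does not mark strand, per the labels' protocols. The deposited file holds raw counts per gene for 24 libraries and 39396 genes; STAR 2.4.2a, bcl2fastq and build GRCm39 are named per the submitters' processing notes, and the counting tool and annotation are not given in the sources used here. Of the genes, 12380 had 0 counts in all libraries.

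From these counts, edgeR 4.0.16 in R 4.3.3 (TMM, filterByExpr with a minimum count of 10 over the 4 groups, robust quasi-likelihood F-test, Benjamini-Hochberg) fitted all 24 libraries with a mean per group. Contrasts were labelled day 7 minus labelled day 1 in DKO, the same in controls, and their difference. Standard errors were taken as the absolute log2 fold change over the root of F. The fit was tested on simulated counts. Alternatives were DESeq2 1.42.0, limma-voom (limma 3.58.1), other scalings and filters, thinning to the smallest total, pseudogenes left out, the gene length trend removed, DKO libraries alone, libraries with Y-linked transcripts, and each library left out; leaving out m1124 and m1128 was added after seeing the data. Gene lengths and overlaps came from GENCODE M21, matched by gene ID for every gene tested, and gene types came with the deposited counts.

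The members and gene lists were chosen with earlier results of these data known. Named were a panel of developmental genes whatever their result; per pathway list up to 3 rises and 3 falls that passed with separate groups and a mean of at least 5 CPM; the 10 largest rises and falls of protein-coding genes outside the lists; and, for the difference, the 10 largest of each sign plus every list member that passed. The text gives fewer of the per-list genes, and some genes named by these rules are not reported here. No replicate pair in a group agreed within sampling noise. Standard errors and SDs include the spread among libraries, and the floor of 3 counts covers counting error only.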

Additional observations from a re-analysis of the deposited data

Results flagged for a closer look

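In 28 of 444 groups of 6 DKO libraries examined (6.31%) a single library stood apart from the other 5 by Dixon's test, where chance gives about 1 in 20 groups. Library m1092 of labelled day 7 was the highest for Slc2a1 at 27.4 CPM (group median 15.5), Pdgfb at 9.22 CPM (group median 6.51), Ftl1 at 1399 CPM (group median 1219), Nr4a3 at 3.06 CPM (group median 0.524), Irf7 at 30.7 CPM (group median 14.1) and Isg15 at 19.7 CPM (group median 5.99) and was the lowest for Col13a1 at 7.32 CPM (group median 11.4) and Cox8a share at 78.8% (group median 80.8). Library m1026 of labelled day 7 was the highest for Ttn at 5579 CPM (group median 4618), Ddit4 at 145 CPM (group median 63.3), Hif3a at 112 CPM (group median 39.1) and Tmem116 at 15.1 CPM (group median 9.81) and was the lowest for Slc7a11 at 11.5 CPM (group median 22), Myo3a at 21.9 CPM (group median 26.5) and Eno1 share at 48.4% (group median 53.3). Library m1046 of labelled day 7 was the highest for Vash2 at 83.8 CPM (group median 58.7) and Itgb6 at 2.77 CPM (group median 1.11) and was the lowest for Sap30 at 22 CPM (group median 67.4). Library m1067 of labelled day 7 was the highest for Atf3 at 56.3 CPM (group median 21). Library 79 of labelled day 1 was the highest for Ndufa1 at 351 CPM (group median 305), H2-K1 at 67.6 CPM (group median 40.3) and Atf3 at 268 CPM (group median 55.8). Library 33 of labelled day 1 was the highest for Myom2 at 1736 CPM (group median 1375). Library 35 of labelled day 1 was the highest for Eno1 at 814 CPM (group median 679.7) and was the lowest for Kcnj8 at 54 CPM (group median 62.3). Library 69 of labelled day 1 was the highest for Gbp2 at 19.1 CPM (group median 10.9) and Ankrd63 at 0.596 CPM (group median 0.133). Library 29 of labelled day 1 was the lowest for Tnnt2 at 7649.5 CPM (group median 8794).

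The labelled-age effect differed between DKO and control, by the interaction contrast of edgeR, for 32 named genes, given here by the difference in log2 fold change. DKO minus control, it was positive for Sln (7.61), Mybphl (6.64), Myl7 (5.73), Chac1 (4.9), Pdzrn4 (1.9), Unc5c (1.85), Dkk3 (1.82), Kctd8 (1.66), Nupr1 (1.6), Lsamp (1.58), Kcnj3 (1.31), Fgf14 (1.17), Rgs6 (1.0), Tbx5 (0.89), Epo (0.88), Gpt2 (0.86), Cacna1g (0.69) and Npas2 (0.57). It was negative for Krt8 (-2.7), Krt18 (-2.32), Nlrp4e (-1.75), Tfcp2l1 (-1.74), Prune2 (-1.69), Myh3 (-1.62), Aldoart2 (-1.53), Bmp7 (-1.32), Myh13 (-1.26), Tmem116 (-1.19), Myh1 (-1.14), Myh4 (-1.06), Map1a (-0.79) and S100a1 (-0.60). Adjusted p values ranged from 1.8e-04 to 0.049. Of the 32, 16 passed in every fit that left out 1 library.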

How the results depend on the processing

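The 9119 calls in DKO ranged from 8576 to 9239 when any single library was left out, with 4416 to 4793 higher and 4115 to 4800 lower. With only libraries that hold Y-linked transcripts 3137 genes were higher. Requiring more than 2-fold as well left 2356, 1218 higher and 1138 lower. The difference between genotypes depended more on the setting. Without a single library it ranged from 90 to 287 calls, 20 to 81 positive and 67 to 207 negative. DESeq2 gave 364 (126 and 238), counts thinned to the smallest total 93 (30 and 63), pseudogenes left out 55 (24 and 31), no filter on low counts 114 with 78 negative, more than 2-fold 92 (29 and 63), and m1124 and m1128 left out 49 (8 and 41). The Y-positive libraries alone gave 144 positive calls. The number of positive calls was 32 without DKO library 29, and that of negative calls 88 without control library 22 and 207 without control library m1088. The cause of these changes was not tested, except that thinning and fewer libraries lower the depth or the number of samples by construction.

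Over single libraries left out, the difference in share ranged from 18.2 to 21.3 percentage points for Myh7, 33.8 to 37.0 for Tnni1, 4.51 to 6.45 for Myl4, 19.8 to 21.2 for Cox7a2, 37.1 to 38.7 for Cox8a, 11.8 to 13.3 for Slc2a1, 18.1 to 19.2 for Hk1, 26.6 to 28.1 for Eno1, 3.96 to 7.74 for Ldha and 0.0244 to 0.0579 for Tnnt1. Tnnt1 passed without m1026 (exact permutation, adjusted p = 0.0043) and in Y-positive libraries (0.0688, adjusted p = 0.036).

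Among 212 genes with values, 28 of 7629 alternative DKO fold changes had the opposite sign. Atf4 turned to -0.0053 with DESeq2, -0.011 with DKO libraries alone and -0.0054 with relative log expression scaling in edgeR. It turned to -0.13 without m1124 and m1128, -0.043 with pseudogenes left out and -0.061 with upper-quartile scaling. Over single libraries left out Atf4 ranged from -0.067 to 0.085. Fgf21 turned to 0.089 with the length trend removed and ranged from -0.51 to 0.30 over single libraries left out. Lsamp ranged from -0.30 to 0.029 over these. In Y-positive libraries Ckm was -0.0044, Fgf21 1.02, Gdf15 0.22, Pdzrn4 0.34, Nupr1 0.21 and Lsamp 0.36, and Rgs6 was -0.0036 without m1124 and m1128. Of the genes not called in DKO with edgeR on all libraries, 8 passed under at least 1 alternative: Asns, Gdf15, Mki67, Myh6 and Top2a as given with their values, Rhot1 without 79, Fgf21 without m1124 and m1128, and Eif2s3y with limma-voom or without these libraries. Of 194 called genes 19 lost their call in Y-positive libraries, where only 2 libraries represent labelled day 7. No paired analysis was possible because the groups share no replicate numbers.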
